A study of Mus musculus with 9 samples.

Results

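The 10 genes described here are Egr1, Egr2, Egr3, Egr4, Nr4a1, Nr4a2, Nr4a3, Arc, Npas4 and Btg2, which neurons switch on within minutes to hours of activity. They were chosen by name out of 51912 Ensembl genes in the deposited tables, with earlier results of these data known. All 10 reached a mean of 1 CPM (counts brought to 1 shared library size by TMM factors), the level that 14787 genes in all reached. The 9 libraries hold RNA of cells sorted from the hippocampus of CamkⅡα-cre mice, males on C57BL/6. In this line the promoter of Camk2a, a gene of forebrain excitatory neurons, drives Cre. An rAAV5 vector delivered Cre-dependent mCherry, a red fluorescent protein, and mCherry-fluorescent cells that excluded DAPI were collected 3 weeks later. Doses of 2.88e+08, 2.88e+09 and 2.88e+10 vector genomes were used, with the low dose as the control, and the series describes 3 groups of 3. The labels of a library give neither its dose nor an age. The tables carry a letter and a number in their column headers, H1 to H3, M1 to M3 and L1 to L3, which the labels do not explain. These names are used here, no library was assigned to a dose, and 0 of 9 have a group in the labels. Values are therefore set side by side by letter with no p-value, mean or standard deviation.

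The Egr genes encode zinc finger transcription factors that bind GC-rich sites, and the Nr4a genes encode orphan nuclear receptors whose activity is set mainly by how much of them is made. Both families are transcribed without new protein synthesis when calcium entry activates kinases and the factors CREB, SRF and MEF2. Arc is a capsid-like synaptic protein that drives AMPA receptor endocytosis, Npas4 is a neuron-enriched transcription factor that answers to calcium entry, and Btg2 is an antiproliferative cofactor of mRNA deadenylation. In the hippocampus these genes mark recently active neurons. Several of them, Egr1, Nr4a1 and Btg2 among them, are also induced in glia and immune cells and by tissue dissociation. The cells here were released from slices with papain, and the slicing solution held tetrodotoxin, a blocker of sodium channels and so of action potentials.

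Library totals ranged from 12136830 to 13105465 counts in the H libraries, from 13424364 to 19151596 in the M libraries and from 15371545 to 16937257 in the L libraries. The H libraries were much closer to each other than other libraries were. Over genes with at least 10 counts in a pair, chi-square per degree of freedom was 2.67 to 5.14 between H libraries, 24.26 to 33.58 between M libraries and 27.21 to 38.86 between L libraries, where 1 would be sampling noise. Pairs of different letters gave 83.31 to 184.44. Whether the libraries of a letter come from separate animals is not stated beyond the series' phrase of biological replication, so a small spread within H is not a measure of spread between animals. Markers of the labelled cell type were detected in every library, and the 10 pyramidal genes summed to 5757 to 5964 CPM in H, 3699 to 3943 CPM in M and 6493 to 8352 CPM in L libraries. Markers of several other cell types differed more, while the astrocyte sums of H overlapped those of M and those of L libraries. The 8 astrocyte genes summed to 237 to 248 CPM in H, 239 to 425 CPM in M and 117 to 239 CPM in L libraries. By the 2-fold rule given below, 2 of the 8 were higher in H than in L (Gfap and Slc1a3) and 0 lower, against 13.2% and 2.00% of all genes. The 13 microglial genes summed to 16500 to 17720 CPM in H, 4501 to 5698 CPM in M and 26.9 to 139 CPM in L libraries. Oligodendrocyte genes summed to 612 to 636 CPM in H, 95.7 to 158 CPM in M and 31.0 to 60.2 CPM in L libraries. Plasma cell genes summed to 3214 to 3343 CPM in H, 3.93 to 7.21 CPM in M and 0.863 to 2.56 CPM in L libraries. In M libraries most of the plasma cell sum was Tnfrsf17, at 6.21, 3.24 and 3.125 CPM in M1 to M3. Tnfrsf17 measured 2.29 to 3.11 CPM in H and 0 in L libraries. In bulk RNA, fewer cells of a type and less RNA per cell cannot be told apart.

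Most of the activity genes were higher in the H than in the L libraries, but not all. A gene was counted when the values of the letters did not overlap and their medians were at least 2-fold apart on the log2(CPM + 1) scale. By this rule 6 of 10 genes were higher in H than in L libraries (Egr1, Egr2, Nr4a1, Nr4a3, Arc and Btg2) and 0 were lower, against 13.2% of all 14787 genes higher and 2.00% lower. Between M and L libraries 3 of 10 were higher (Egr2, Nr4a3 and Btg2) and 0 lower, against 9.35% and 2.31% of all genes. Between H and M libraries only Egr1 was higher by this rule, and 0 were lower, against 6.54% and 2.70% of all genes. Without the fold, the same 6 genes lay above L in the H libraries and 0 below, against 24.7% and 26.2% of all genes. The values of 4 genes (Egr1, Egr3, Nr4a1 and Arc) all lay above M in the H libraries and those of Btg2 all below, against 23.0% and 21.3% of all genes. Over all genes the rule found 1959 higher and 296 lower in H against L, and 967 higher and 399 lower in H against M. The 10 pan neuron markers summed to 6035 to 6273 CPM in H, 7717 to 8520 CPM in M and 8475 to 9266 CPM in L libraries. Relative to these sums the splits became 3213 and 52, and 1890 and 210. Under that scaling the median of all genes was 0.46 in H minus L, 0.11 in M minus L and 0.39 in H minus M, against -0.04, 0.00 and 0.00 under TMM.

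**Figure D1:**
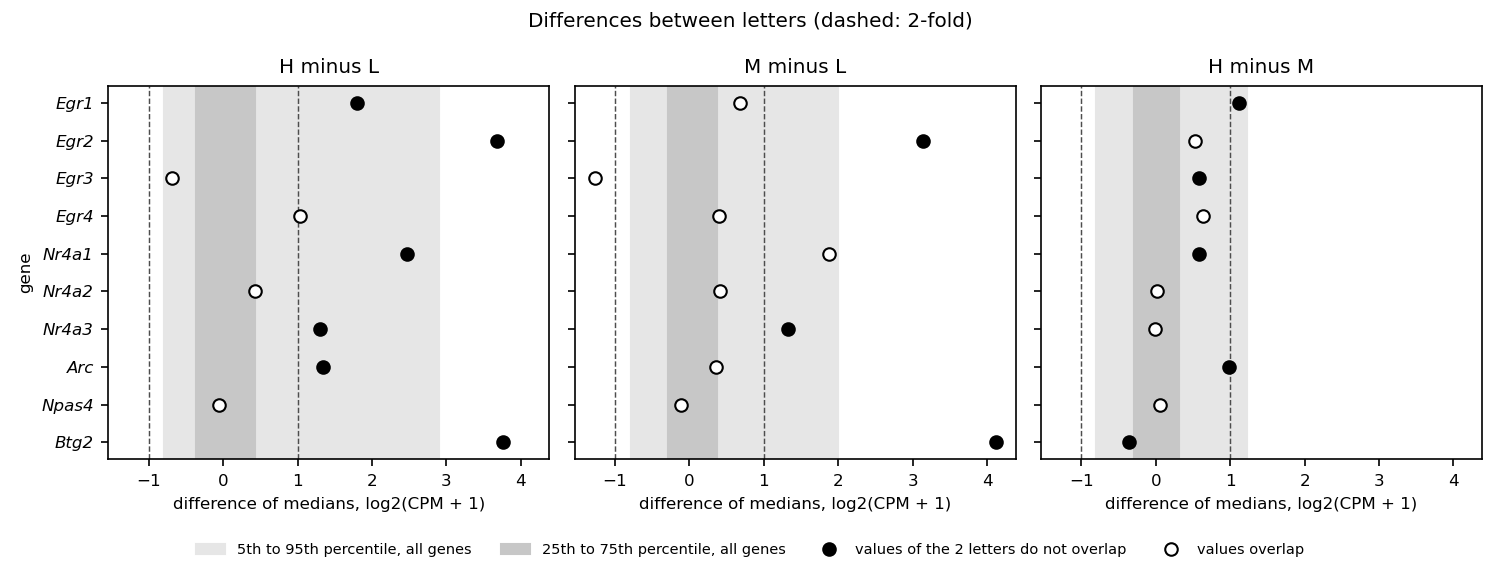
Difference between the medians of 2 letters on the log2(CPM + 1) scale for each of the 10 genes, in 3 panels (H minus L, M minus L, H minus M). Filled points mark genes whose values do not overlap between the letters, grey bands show the spread over all 14787 genes and dashed lines mark 2-fold. Egr2 and Btg2 lie beyond the 95th percentile of all genes in both panels against L, while Egr3 lies to the left of 0 there.

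Promoter windows were in the RefSeq table for 7 of the 10 genes, not for Egr1, Egr3 and Arc. Windows of 4 genes are shown because these genes span the patterns described below. Btg2 was high in both H and M libraries, and Nr4a1 and Egr2 had large gaps within the L libraries. Npas4 was nearly level except in L3. Each window runs from 250 bases before to 50 bases after an annotated start on GRCm38.p6, in the direction of the gene. Capitals mark TGACG on either strand, the core of the cyclic AMP response element bound by CREB, its full form TGACGTCA, the GCGNGGGCG site of Egr proteins on either strand, and the CArG box of SRF.
Btg2, minus strand, chr1:134079106-134079405: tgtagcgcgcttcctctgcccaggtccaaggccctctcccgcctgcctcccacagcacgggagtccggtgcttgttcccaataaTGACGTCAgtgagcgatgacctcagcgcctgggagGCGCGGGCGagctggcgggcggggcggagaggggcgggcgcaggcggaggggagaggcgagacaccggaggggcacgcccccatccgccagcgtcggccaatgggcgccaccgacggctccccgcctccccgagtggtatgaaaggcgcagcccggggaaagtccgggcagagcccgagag
Nr4a1, plus strand, chr15:101266596-101266895: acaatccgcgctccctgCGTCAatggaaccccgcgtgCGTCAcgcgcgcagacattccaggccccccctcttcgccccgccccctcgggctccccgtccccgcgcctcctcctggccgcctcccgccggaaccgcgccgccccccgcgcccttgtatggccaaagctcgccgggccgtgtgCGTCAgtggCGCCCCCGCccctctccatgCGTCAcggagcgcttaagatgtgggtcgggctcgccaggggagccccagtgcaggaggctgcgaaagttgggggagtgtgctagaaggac
Npas4, minus strand, chr19:4989922-4990221: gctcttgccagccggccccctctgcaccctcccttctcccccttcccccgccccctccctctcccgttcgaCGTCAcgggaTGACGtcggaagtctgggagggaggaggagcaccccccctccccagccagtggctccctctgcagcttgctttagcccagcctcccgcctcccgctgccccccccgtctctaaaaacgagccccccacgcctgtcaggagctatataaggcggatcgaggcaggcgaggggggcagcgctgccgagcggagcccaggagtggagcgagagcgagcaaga
Egr2, plus strand, chr10:67537619-67537918: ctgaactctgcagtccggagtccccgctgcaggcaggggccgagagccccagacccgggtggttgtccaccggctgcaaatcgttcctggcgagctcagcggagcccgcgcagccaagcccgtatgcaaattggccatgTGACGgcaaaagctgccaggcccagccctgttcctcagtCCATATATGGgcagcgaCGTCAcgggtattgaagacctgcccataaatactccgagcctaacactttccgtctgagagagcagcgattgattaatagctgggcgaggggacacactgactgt
TGACG was found in at least 1 window of all 7 genes (9 of 11 windows), and in 20.8% of all 32851 windows in the table. The full TGACGTCA, which contains TGACG on both strands, was found in Btg2 only, and in 1.79% of all windows. GCGNGGGCG was found in Btg2, Nr4a1 and Nr4a2, and in 5.55% of all windows. Nr4a1 held TGACG at 4 places, Btg2, Npas4 and this window of Egr2 at 2 places each. Of the 5 windows of Egr2, the one shown was picked for the most TGACG matches, then the most CArG boxes. A CArG box was found in 4 of the 5 windows of Egr2 and in 1.63% of all windows. AAAGGTCA, the site of Nr4a proteins, and TGANTCA, the site of AP-1, were found in 0 of the 11 windows, and in 1.51% and 7.81% of all windows. These are matches of letters in short windows and not measured binding.

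Of the Egr family, Egr1 was the most abundant and Egr2 differed most between letters. Egr1 (ENSMUSG00000038418, mm10 chromosome 18, 34859823 to 34864984, plus strand) measured 1352, 1224 and 1246 CPM in H1 to H3, 818, 573 and 499.6 CPM in M1 to M3, and 1167, 315 and 357 CPM in L1 to L3. All H values lay above all others, but L1 was close below them and above every M library. The 95% Poisson counting interval was 1205 to 1243 CPM in H2, the lowest H library, and 1150 to 1185 CPM in L1, and such intervals cover counting error only. The median difference was 1.80 in H minus L, 0.68 in M minus L and 1.12 in H minus M on the log2 scale. It rests on few libraries: without L2 the H minus L difference was 0.95, and without M2 or M3 the H minus M difference was 0.96 or 0.86, all under 2-fold. The M minus L difference was -0.17 without L2, -0.08 without L3 and 0.77, with no overlap, without L1.

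Egr2, best known as the regulator of myelination in Schwann cells (Krox20) and also induced in active neurons and activated macrophages, lies on chromosome 10, 67535475 to 67542188, plus strand. It measured 55.6, 64.2 and 63.1 CPM in H1 to H3, 60.7, 43.4 and 38.0 CPM in M1 to M3, and 31.6, 4.02 and 2.34 CPM in L1 to L3. The H and M ranges overlapped, and both lay above all L libraries, with L1 nearest. The difference was 3.68 in H minus L and 3.14 in M minus L, larger than in 96.6% and 97.3% of all genes. Without L2 these were 2.62 and 2.09, and without L3 2.33 and 1.79, in each case with no overlap. Within the L libraries the highest value was 13.5 times the lowest, a wider range than in 99.8% of all genes.

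Egr3 and Egr4, which are expressed mainly in neurons in the brain, did not follow Egr2. Egr3 (chromosome 14, 70077203 to 70082614, plus strand) measured 9.34, 4.99 and 6.79 CPM in H1 to H3, 4.32, 4.21 and 2.98 CPM in M1 to M3, and 13.6, 11.6 and 3.39 CPM in L1 to L3. Its highest values were in L1 and L2 and its L range covered every other library except M3. These levels rest on 41 to 202 counts, and the interval of L1 was 11.8 to 15.6 CPM. The H minus L difference was -0.69 and the M minus L difference -1.27, with overlap in both. Leaving out 1 L library changed both: H minus L was 0.07 without L1 and -0.04 without L2, and M minus L was -0.51 without L1, -0.62 without L2 and -1.38, with no overlap, without L3.

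Egr4 (chromosome 6, 85511121 to 85513589, minus strand) measured 89.8, 72.1 and 72.7 CPM in H1 to H3, 82.8, 46.3 and 43.7 CPM in M1 to M3, and 100.5, 35.0 and 29.8 CPM in L1 to L3. L1 was the highest of all 9 libraries, and L2 and L3 the lowest. The H minus L difference was 1.03 with overlap, and 1.15 with no overlap when L1 was left out, but 0.40 without L2 and 0.29 without L3. The M minus L difference of 0.39 was -0.24 without L2, -0.35 without L3 and 0.51, with no overlap, without L1.

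**Figure D2:**
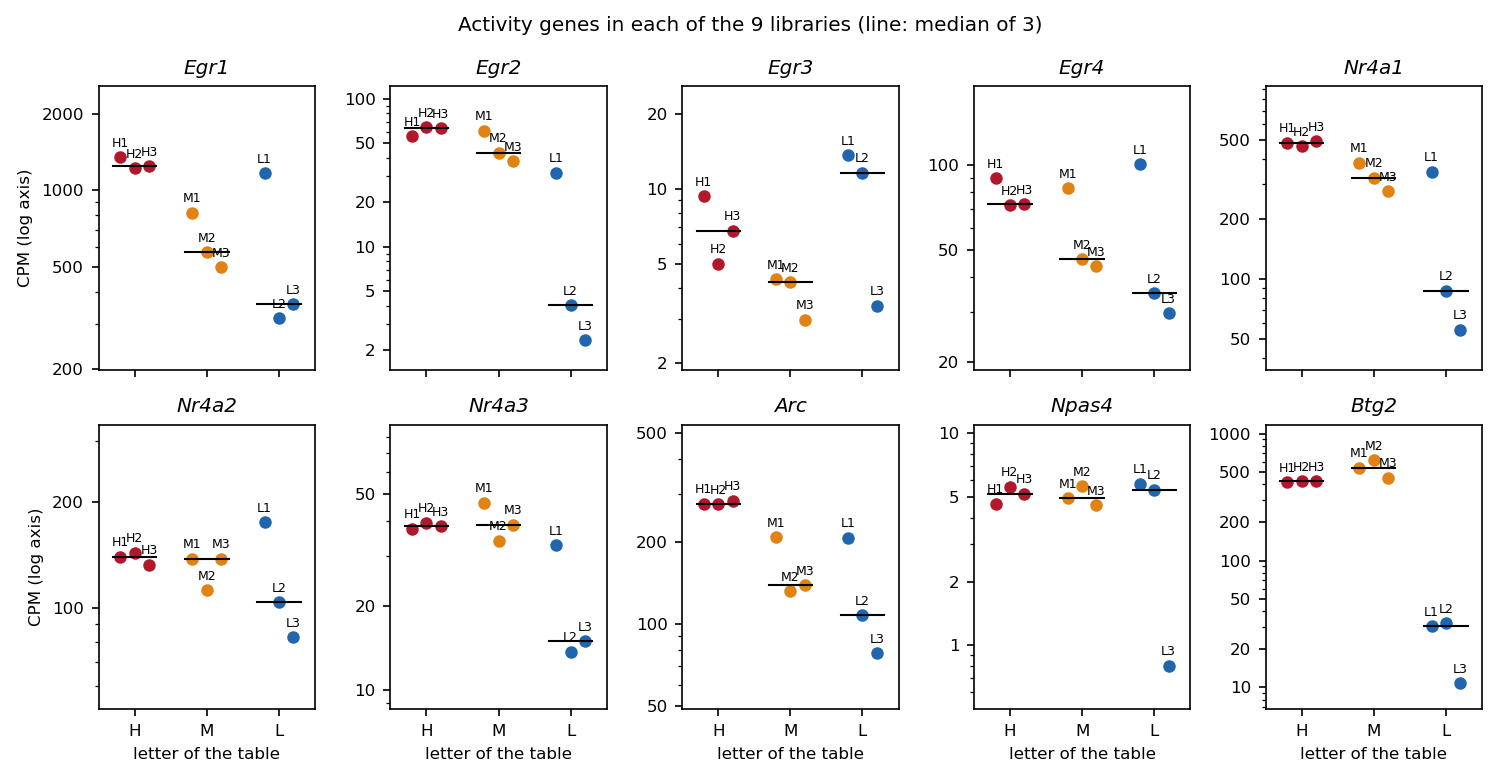
CPM (log axis) of each of the 10 genes in each library, in columns H, M and L, with library names beside the points and a line at the median of 3. L1 stands above L2 and L3 for Egr1, Egr2, Egr4, Nr4a1, Nr4a2, Nr4a3 and Arc, whereas for Btg2 all L libraries lie below all H and M libraries.

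The Nr4a receptors ranged from a strong difference to one under 2-fold. Nr4a1 (Nur77, ENSMUSG00000023034, chromosome 15, 101254269 to 101274795, plus strand) measured 484, 464 and 490.3 CPM in H1 to H3, 383, 323 and 276 CPM in M1 to M3, and 346, 86.9 and 55.4 CPM in L1 to L3. The H values all lay above the rest, and L1 fell inside the M range. The difference was 2.46 in H minus L and 1.88 in M minus L. The M and L values overlapped only through L1, and without it the M libraries were higher by 2.20 with no overlap. Without L2 or L3 the M minus L difference was 1.21 or 0.89 with overlap, and the H minus L difference 1.79 or 1.47 with none.

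Nr4a3 (Nor1, chromosome 4, 48045153 to 48086447, plus strand) measured 37.7, 39.6 and 38.5 CPM in H1 to H3, 46.6, 34.1 and 38.9 CPM in M1 to M3, and 33.0, 13.7 and 15.0 CPM in L1 to L3. H and M libraries overlapped, and both lay above L, though L1 was within 2 CPM of M2. The differences of 1.31 in H minus L and 1.32 in M minus L dropped to 0.76 and 0.78 without L2, and to 0.82 and 0.84 without L3.

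Nr4a2 (Nurr1, the receptor needed by midbrain dopamine neurons, chromosome 2, 57106830 to 57124003, minus strand) measured 140.0, 144 and 133 CPM in H1 to H3, 138, 112 and 138 CPM in M1 to M3, and 175, 104 and 82.5 CPM in L1 to L3. The L libraries spanned both ends of the whole range. The H minus L difference was 0.43, with overlap, and 0.05 without L3. Without L1 it was 0.59, and relative to the pan neuron markers 0.90, both with no overlap. The M minus L difference was 0.41 with overlap, 0.035 without L3 and 0.575, with no overlap, without L1. The balance of the family therefore differed by library. Per length, Nr4a1 over Nr4a2 in deposited FPKM was 5.67, 5.29 and 6.06 in H1 to H3, 4.54, 4.71 and 3.27 in M1 to M3, and 3.24, 1.37 and 1.10 in L1 to L3.

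Of the neuronal effectors, Arc separated the H from the L libraries and Npas4 overlapped between them. Arc (ENSMUSG00000022602, chromosome 15, 74669083 to 74672570, minus strand) measured 276, 274 and 282 CPM in H1 to H3, 208, 132 and 139 CPM in M1 to M3, and 207, 108 and 78.1 CPM in L1 to L3. H values were the highest and close together, while M1 and L1 were nearly equal. The difference was 1.35 in H minus L, 0.36 with overlap in M minus L and 0.99, just under 2-fold, in H minus M, the first and last with no overlap. Without L3 the H minus L difference was 0.88 and the M minus L difference -0.11. Without L1 they were 1.58 and 0.59, both with no overlap.

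Npas4 (chromosome 19, 4984355 to 4990316, minus strand) was the least abundant of the 10 by median FPKM in H and M libraries. It measured 4.67, 5.61 and 5.19 CPM in H1 to H3, 4.95, 5.65 and 4.58 CPM in M1 to M3, and 5.79, 5.42 and 0.801 CPM in L1 to L3. Apart from L3 the counting intervals all overlapped. L3 rests on 13 counts, with an interval of 0.427 to 1.37 CPM below all others. The H minus L difference was -0.05 and the M minus L difference -0.11, both with overlap. They depend on which L libraries are kept, at 0.86 and 0.81 without L1 and 0.82 and 0.77 without L2.

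Btg2 had another pattern, with all L libraries far below H and M. Its M minus L difference was the largest of the 10 genes, and in H minus L it was close to Egr2. Btg2 (ENSMUSG00000020423, chromosome 1, 134075170 to 134079120, minus strand) measured 413, 422 and 424 CPM in H1 to H3, 540.4, 619.6 and 451 CPM in M1 to M3, and 30.3, 32.2 and 10.8 CPM in L1 to L3. The 3 letters did not overlap, with M highest, and L1 was as low as L2. The difference was 3.76 in H minus L and 4.11 in M minus L, larger than in 96.8% and 98.4% of all genes. In H minus M it was -0.36, but 0.08 relative to the pan neuron markers. The microglial and border macrophage sums moved with Btg2 against L. The microglial sum was 16500 to 17720 CPM in H, 4501 to 5698 CPM in M and 26.9 to 139 CPM in L libraries. Of its genes 13 of 13 were higher in H and 12 of 13 in M than in L. The exception in M was Tmem119, at 1.84 to 4.00 CPM in M, 0.2465 to 3.50 CPM in L and 224 to 237.5 CPM in H libraries. The border macrophage sum was 264 to 269.7 CPM in H, 1114 to 1434 CPM in M and 1.66 to 12.9 CPM in L libraries. There 5 of 5 genes were higher in both H and M than in L. By the same rule 13.2% of all genes were higher in H and 9.35% in M than in L libraries. Itgam was at 0 in at least 1 L library. The part of these markers in the Btg2 values was not tested.

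Per length, the order of the 10 genes also differed between letters. By deposited FPKM, Egr1 was the highest in every H and L library and Btg2 in every M library. Egr1 over Btg2 was 2.00, 1.78 and 1.80 in H1 to H3, 0.926, 0.566 and 0.677 in M1 to M3, and 23.6, 5.98 and 20.2 in L1 to L3. Arc over Btg2 was 0.599, 0.582 and 0.597 in H1 to H3, 0.345, 0.191 and 0.276 in M1 to M3, and 6.13, 3.01 and 6.49 in L1 to L3. Both ratios were thus lowest in M and highest in L libraries, with no overlap between letters.

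L1 stood apart from L2 and L3 in several of these genes, a comparison made after the values were seen. It exceeded both by at least 2-fold on the log2(CPM + 1) scale in 5 of the 10 (Egr1, Egr2, Egr4, Nr4a1 and Nr4a3), against 0.690% of all 14787 genes. The gap to the higher of L2 and L3 was 2.70 for Egr2, 1.98 for Nr4a1, 1.71 for Egr1, 1.495 for Egr4 and 1.09 for Nr4a3. Arc at 0.93 and Nr4a2 at 0.75 were short of it, and Egr3, Npas4 and Btg2 were at 0.22, 0.08 and -0.09. Among other rapid early genes, 5 of 30 passed, namely Fos, Ier5, Dusp5, Sik1 and Trib1. Of 24 delayed neuronal genes 1 passed (Nfil3), of 20 upstream regulators 0, of 10 pan neuron markers 0 and of 13 microglial markers 0. The microglial sum was 78.1 CPM in L1, against 139 CPM in L2 and 26.9 CPM in L3. Of 6 dentate granule neuron markers 0 passed. Their sum was 43.7 CPM in L1, 107.8 CPM in L2 and 35.1 CPM in L3, and their part was not tested. Of 8 inhibitory markers 2 passed, Pvalb and Vip, and Vip measured 164 CPM in L1, against 0.305 CPM in L2 and 0.555 CPM in L3. The same gap was negative for Gad1, Gad2, Slc32a1, Sst, Npy and Lhx6, from -0.02 for Sst to -1.37 for Npy. The inhibitory sum was 1390 CPM in L1, 1808 CPM in L2 and 474 CPM in L3. The part of these interneuron genes was not tested. L1 is 1 library, so this gap has no replicate.

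**Figure D3:**
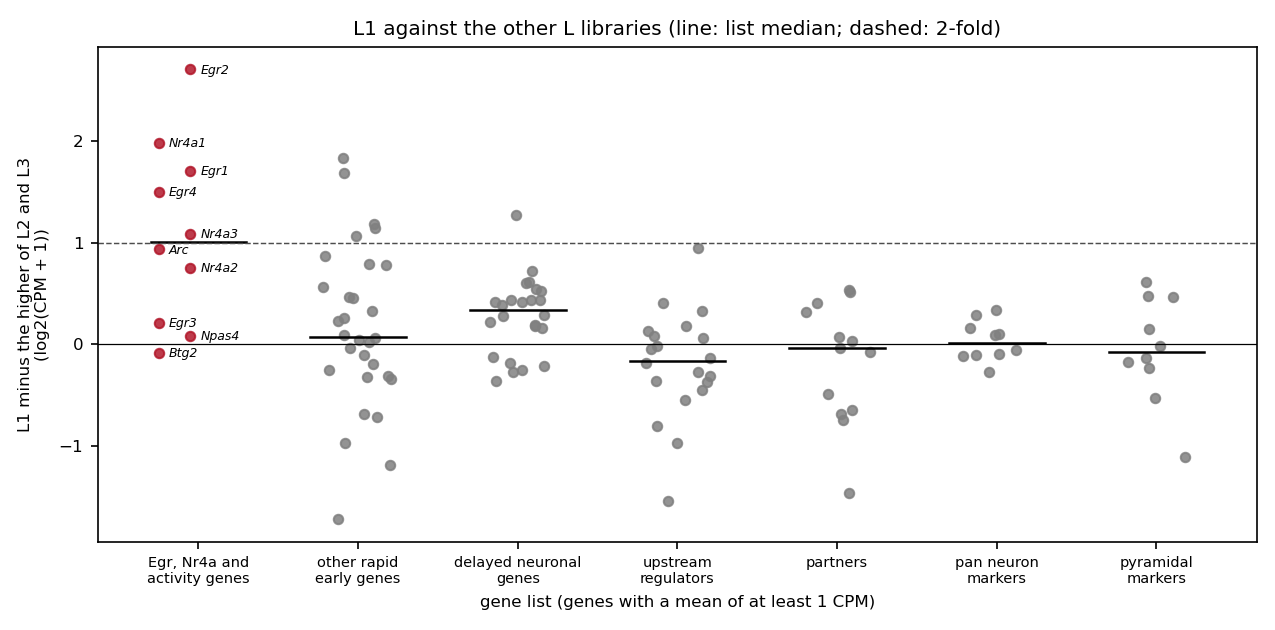
Difference between L1 and the higher of L2 and L3 on the log2(CPM + 1) scale for each gene of 7 lists, 1 point a gene, with list medians as lines and 2-fold dashed. Of the Egr, Nr4a and activity genes 5 of 10 lie above the dashed line, while every pan neuron and pyramidal marker lies below it.

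Likeness between profiles was measured as the mean absolute difference of log2(CPM + 1), centred on each gene's median, over the 9 libraries, with no test. Among the 10 genes the closest were Egr4 and Arc (0.22), Egr1 and Arc (0.23), and Egr1 and Egr4 (0.26). The least alike were Egr3 and Btg2 (1.96). Of all other genes, the closest to Egr1 was Dusp5 (0.19), which encodes a dual-specificity phosphatase, and the closest to Nr4a1 was Nfil3 (0.23), a transcriptional repressor. Spty2d1 was closest to Arc (0.18) and also among the nearest to Egr4 (0.24), and Dusp6, of the same phosphatase family, was among the nearest to Arc (0.18). Closest to Btg2 were Gpr183 (0.15), an oxysterol receptor of immune cells, Tnfaip8 (0.17) and Lpar6 (0.21). Egr2 had no close match, and its nearest, Tnfrsf11a, the receptor RANK, was at 0.41. Nr4a2 lay near Rab35 (0.05), Npas4, whose medians were close in all 3 letters, near Prdm15 (0.10), Nr4a3 near Cybc1 (0.14) and Egr3 near Pcdhgb6 (0.25).

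**Figure D4:**
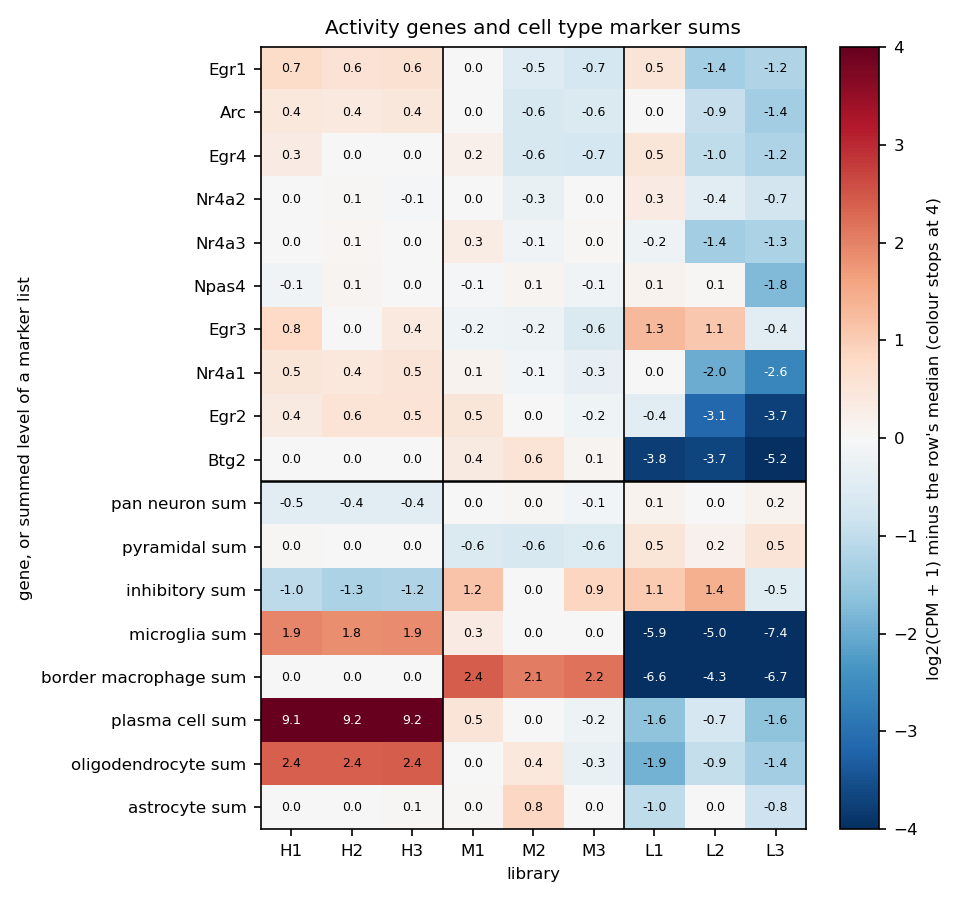
Each cell gives log2(CPM + 1) of a gene, or of the summed level of a marker list, minus the median of its row over the 9 libraries (columns H1 to L3). In L1 the rows of Egr1, Egr4, Nr4a1, Nr4a2 and Nr4a3 stand within the range of, or close to, the H and M libraries, while the Btg2 row and the microglia and border macrophage sums are low in all L libraries.

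Many other rapid early genes were also higher in H and M than in L libraries. Of 31 such genes 30 reached 1 CPM. In H against L libraries 22 were higher and 0 lower, against 13.2% and 2.00% of all genes. The median difference was 1.92, against 1.33 for the 10 genes and -0.04 for all genes. Between M and L libraries 17 were higher and 1 lower (Jund), against 9.35% and 2.31% of all genes. The median there was 1.36, against 0.55 for the 10 genes and 0.00 for all genes. Fos, the AP-1 subunit, measured 949.9, 929 and 947 CPM in H1 to H3, 1430, 1555 and 1103 CPM in M1 to M3, and 123, 37.8 and 15.4 CPM in L1 to L3. Zfp36, which destabilises cytokine mRNAs, measured 842, 779.6 and 817 CPM in H1 to H3, 719.9, 874 and 474 CPM in M1 to M3, and 3.36, 13.3 and 0.986 CPM in L1 to L3. Dusp1, a phosphatase of MAP kinases, and Atf3, a stress-induced factor, were also higher in both H and M than in L, by 3.35 and 4.04, and by 6.71 and 5.48. Many of these genes are expressed in myeloid cells too, whose markers moved in the same direction, and that part was not tested.

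Delayed activity genes, which neurons induce later or through the early factors, passed the rule at shares near those of all genes, which were 13.2% higher in H and 9.35% higher in M than in L libraries. Of 24, all at 1 CPM or more, 4 were higher in H than in L libraries (Plk3, Ptgs2, Nfil3 and Pim1) and 0 lower, with a median of 0.18. Between M and L 2 were higher (Plk3 and Pim1) and 1 lower (Mapk4), with a median of -0.23. Ptgs2, the inducible cyclooxygenase, measured 106, 119 and 110.0 CPM in H1 to H3, 17.5, 28.1 and 19.3 CPM in M1 to M3, and 16.6, 21.6 and 7.77 CPM in L1 to L3. Pim1, a kinase of cytokine signalling, measured 14.1 to 17.1 CPM in H, 10.0 to 17.2 CPM in M and 0 to 0.426 CPM in L libraries. The most abundant were Plk2, a kinase of synaptic scaling, at 731 to 791 CPM in H, 584 to 794 CPM in M and 949 to 1354 CPM in L libraries, and Scg2, a granule protein, at 511 to 519.9 CPM in H, 413 to 604 CPM in M and 648 to 738 CPM in L libraries. Bdnf, the neurotrophin targeted by Npas4, named after its values were seen, measured 159, 158 and 170.0 CPM in H1 to H3, 144, 104 and 134 CPM in M1 to M3, and 184, 112 and 128 CPM in L1 to L3, which overlapped.

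Genes of the route to these promoters are described by their counts beside the same shares of all genes, 13.2% and 9.35% higher and 2.00% and 2.31% lower. Of 20 upstream regulators (kinases, channels, and the CREB, SRF and MEF2 factors) 0 passed in either direction between H and L or between M and L libraries, with medians of -0.01 and -0.20. Creb1 measured 42.8 to 45.1 CPM in H, 34.6 to 42.2 CPM in M and 27.5 to 29.7 CPM in L libraries, a difference of 0.66 in H minus L with no overlap but under 2-fold. Ppp3ca, the catalytic subunit of calcineurin, and Rps6ka5, a kinase of CREB, had differences of 0.09 and -0.88 in H minus L. Of 13 partners of the 10 proteins, 1 was higher in H and in M than in L libraries, Dnm2, an endocytic dynamin bound by Arc, at 38.9 to 46.7 CPM in H, 30.3 to 39.4 CPM in M and 12.02 to 16.4 CPM in L libraries. Rxrb and Sh3gl3 were lower in M than in L libraries, by -1.39 and -1.87. The deadenylases Cnot7 and Cnot8, partners of Btg2, had differences of 0.04 and -0.14 in H minus L, and Rxrg, a nuclear receptor partner, -0.91.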

How the data were processed

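Each deposited table lists, per the file headers, 2 values for every Ensembl gene: the authors' whole-number count of reads and an FPKM value, which divides by gene length and library size. mm10, HTSeq 0.6.1, HISAT2 2.0.1, Trimmomatic 0.30 and bcl2fastq 2.17.1.14 stand in the submitters' processing notes without roles. Strand setting and annotation release: not given in the sources used here. Symbols came from GENCODE M21, which held 99.63% of the gene identifiers, and no other annotated gene overlaps the 10 described.

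CPM were computed from the counts with TMM factors of edgeR 4.0.16 in R 4.3.3. Differences are of medians of log2(CPM + 1), over the genes whose mean reached 1 CPM. A count of 0 allows up to 0.1579 to 0.2459 CPM (3 counts), depending on the library. Since no library has a group in the labels, no test was run. Python 3.11.15, numpy 2.4.6, pandas 2.3.3, scipy 1.17.1 and matplotlib 3.10.9 were used. The 10 genes and all lists were chosen with earlier results of these data known. Named genes are all 10, the 2 most abundant and the 2 most different (H against L) genes of each other list, and the 3 most alike profiles per gene, of which some are given; 1 gene of these lists is not reported here. Alternatives were other scalings (totals, DESeq2 1.42.0, totals without mitochondrial genes, pan neuron markers), deposited FPKM, pseudocounts, minimum levels, folds and leaving out each library.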

Additional observations from a re-analysis of the deposited data

How the results depend on the processing

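Of the 6 genes higher in H than in L libraries, 3 remained at 4-fold (Egr2, Nr4a1 and Btg2), and the count was 4 to 7 with each library left out, 4 without L2 or L3 and 7 without L1. The 3 higher in M than in L libraries were 2 to 4, and the median H minus L difference of 1.33 was 0.85 to 1.47. The count higher in H than in M libraries, 1, was 2 with DESeq2 size factors, 4 relative to the pan neuron markers, 2 at 1.5-fold, 0 at 4-fold and 0 to 2 with a library left out. Of the 95 genes of the other lists 29 were higher in H than in L, and 18 at 4-fold, against 1959 and 1155 of all 14787 genes. By list the 29 were 22 of 30 other rapid early genes, 4 of 24 delayed genes, 0 of 20 upstream regulators, 1 of 13 partners and 2 of 7 relatives. The 5 genes with L1 above both other L libraries were 1 at 4-fold, against 0.690% of all 14787 genes at 2-fold and 0.0338% at 4-fold. These alternatives were chosen after seeing the data. Of 324 differences of single genes under the other alternatives 312 moved by less than the spread between libraries, and with 1 library left out 244 did and 26 moved by more. Both counts include differences that could not move, so they overstate stability. Minimum levels and folds do not enter a difference of medians, and neither does a left-out library of a letter outside it. Called differences kept their sign (0 reversed), but uncalled ones of Egr1, Egr4 and Arc (M minus L), Egr3 (H minus L), Btg2, Nr4a2 and Nr4a3 (H minus M) and Npas4 (all 3) changed sign under at least 1 alternative. Over all genes, 1959 higher in H than in L became 3213 relative to the pan neuron markers, 1222 with a pseudocount of 5 CPM, 910 at a minimum of 10 CPM and 1155 at 4-fold, and 296 lower became 52, 120, 184 and 17, 153 in FPKM and 1386 at 1.5-fold. The 1382 higher in M than in L became 786, 696 and 727 with 5 CPM, 10 CPM and 4-fold, and 341 lower became 217 in FPKM, 207 with 5 CPM, 941 at 1.5-fold and 38 at 4-fold. The 967 higher in H than in M became 1890 relative to the pan neuron markers, 584, 511 and 333 with 5 CPM, 10 CPM and 4-fold and 1807 at 1.5-fold, and 399 lower became 210, 194, 207, 45 and 1222. The cause was not tested. Npas4 and Egr3, at 13 to 202 counts, and Egr2 in L2 and L3, at 66 and 38 counts, are limited most by depth.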

Other observations

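Btg1, a relative of Btg2, measured 206, 222 and 223 CPM in H1 to H3, 30.7, 27.0 and 63.5 CPM in M1 to M3, and 30.6, 41.5 and 30.3 CPM in L1 to L3, so it was high in H only, where Btg2 was high in H and M. Tob1, of the same family, measured 39.2 to 42.9 CPM in H, 34.6 to 44.9 CPM in M and 21.5 to 28.9 CPM in L libraries. Tob2 measured 28.0 to 34.2 CPM in H, 23.6 to 27.8 CPM in M and 7.46 to 10.5 CPM in L libraries, and was higher in both H and M than in L by the 2-fold rule. Npas1, a relative of Npas4 found in inhibitory neurons, was lower in H than in L libraries, at 1.91 to 2.79 CPM in H, 10.8 to 19.5 CPM in M and 8.75 to 20.3 CPM in L. The summed inhibitory markers moved with it, at 276 to 323 CPM in H, 669 to 1491 CPM in M and 474 to 1808 CPM in L libraries, and their part was not tested.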
